A study of Mus musculus with 2 samples.

Results

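The genes Mir3057 to Mir3113 are hairpin genes of mouse microRNAs that received their names in 1 run of consecutive numbers, after the abundant and conserved families had been named. They were measured in the hindbrain, the part of the brain that forms the cerebellum, pons and medulla, at embryonic day 15.5. Members were all gene rows with a symbol from Mir3057 to Mir3113, leaving out Mir3065 and any gene in a stretch of chromosome 12 that holds a large imprinted microRNA cluster. This gave 49 members among 1973 gene rows. Mir3072 has a row and fell in the left-out stretch. A further 9 symbols of the number range, among them Mir3074-2, Mir3073b and Mir3107, have no row in the count tables.

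The study sequenced microRNAs from 2 libraries of 1 group, B6NCrl hindbrain with both sexes pooled. Replicate 1 was made from the hindbrains of 78 embryos and replicate 2 from those of 62. No treatment, mutation, other tissue or other age was compared, so the only comparison is between these 2 pools. A read count belongs to the hairpin as a whole and does not separate its 5p arm from its 3p arm.

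A microRNA is cut from a hairpin transcript, usually by Drosha in the nucleus and then by Dicer in the cytoplasm. One arm of the hairpin is loaded into an Argonaute protein, and bases 2 to 8 of that arm, the seed, do most of the pairing with messenger RNAs. Mirtrons are short introns whose spliced and debranched form is itself the hairpin, so that the spliceosome takes the place of Drosha. In tailed mirtrons the hairpin touches only 1 end of the intron, and the remaining tail is trimmed away. MicroRNAs found late are on the whole less abundant, less conserved and more often located in introns of host genes than those found early.

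Mature sequences are shown for the members with the highest levels, since these 8 carry most of the members' reads. A mature sequence was found for 46 of the 49 members in the RefSeq microRNA table (GRCm38.p6). Capitals mark the seed, and each sequence runs 5′ to 3′.
miR-3071-5p: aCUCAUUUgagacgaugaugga
miR-3071-3p: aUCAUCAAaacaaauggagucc
miR-3099-5p: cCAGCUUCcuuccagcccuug
miR-3099-3p: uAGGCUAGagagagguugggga
miR-3074-5p: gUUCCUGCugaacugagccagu
miR-3059-5p: uUUCCUCUcugccccauagggu
miR-3059-3p: cCUCUAGGgaagagaagguugg
miR-3102-5p: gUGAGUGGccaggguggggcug
miR-3102-3p: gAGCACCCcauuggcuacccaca
miR-3061-5p: cAGUGGGCcgugaaagguagcc
miR-3061-3p: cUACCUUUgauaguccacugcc
miR-3093-5p: cGCACCCCgcggagcucacacu
miR-3093-3p: uGUGGACAccgugggagguugg
miR-3067-5p: aGUUCUCAggcccgcuguggugu
miR-3067-3p: cCAAGCGGcugcccugggagagg

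Nearly all of these genes gave at least a trace of reads, and few gave many. At least 1 read lay in both libraries for 40 of the 49 members, at least 10 for 22 and at least 100 for 7. Of all 1973 gene rows, 271 reached this last mark. A small part with many reads therefore does not set the series apart from the rows as a whole. Mir3090 and Mir3092 had 0 reads in both libraries. Another 7 members had reads in 1 library only: Mir3095 with 7 in replicate 1, Mir3100 with 4 in replicate 1, Mir3063 with 2 in replicate 2, and Mir3110, Mir3073a, Mir3077 and Mir3113 with 1 read each. Where no read was found, counting error alone allows up to 3 reads, equal to a level of 0.762 CPM (the gene's count scaled by the library's own-strand gene reads) in the smaller library, replicate 1, and of 0.62 CPM in replicate 2. Together the members held 5241 of 3937840 own-strand gene reads in replicate 1, or 0.133% (exact Clopper-Pearson 95% interval 0.130 to 0.137), and 6336 of 4839647 in replicate 2, or 0.131% (0.128 to 0.134). The 2 pools thus gave nearly the same share for the members in sum, 0.132% ± 0.00154 (SD, n = 2), although parts of the series moved in opposite directions, as given below.

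**Figure D1:**
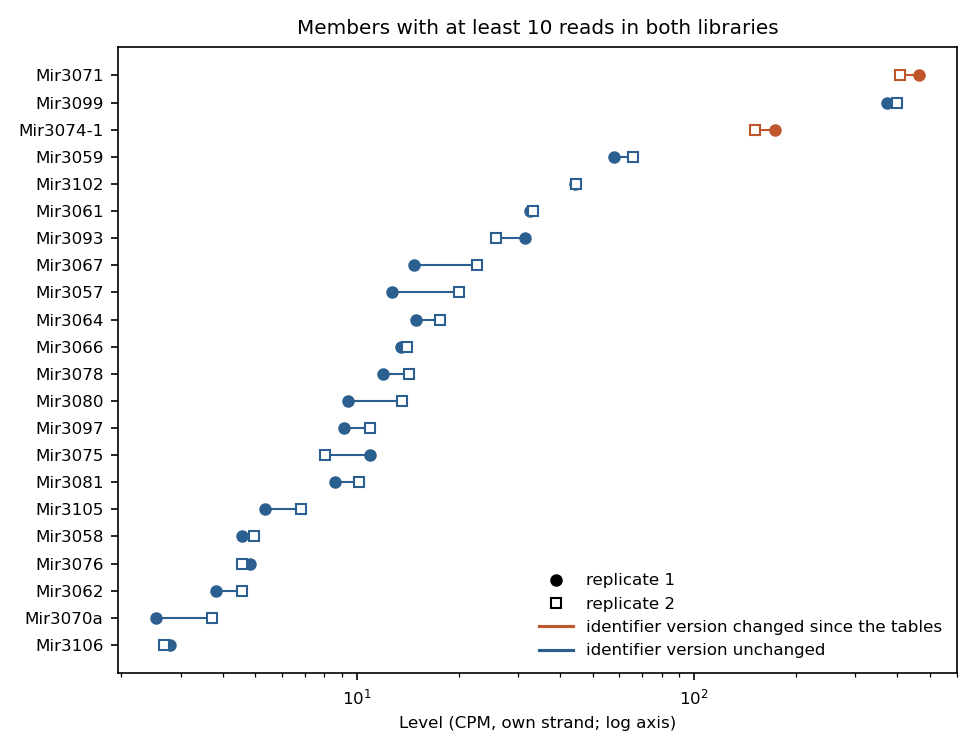
Level of the 22 members with at least 10 reads in both libraries, in CPM on a log axis, with a filled circle for replicate 1 and an open square for replicate 2. Mir3071 and Mir3099 stand highest, at means of 435 and 385 CPM, and the lowest of the 22, Mir3106, has a mean of 2.74 CPM. Orange marks Mir3071 and Mir3074-1, whose gene identifiers carry another version number in the later annotation.

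The row named Mir3071 had the highest count of the series. It held 1824 reads in replicate 1 and 1973 in replicate 2, a level of 435 ± 39.3 CPM (SD, n = 2), and rank 128 among all 1973 rows. Mir485 stood just above it at 441 ± 21.8 CPM and Mir1193 just below at 418 ± 22.7 CPM, and neither differed from it by more than the spread between the pools. Current annotation places Mir3071 (ENSMUSG00000070129) on the minus strand of chromosome 12 at chr12:109595318-109595397 (mm10), inside a coding exon of Rtl1, a retrotransposon-derived imprinted gene. Mir136, a microRNA gene that has no row in the tables, lies over the same bases on the plus strand.

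The arms of these facing hairpins are reverse complements where they overlap. miR-3071-3p overlaps miR-136-5p over 20 nt, and miR-3071-5p overlaps miR-136-3p over 19 nt. The Mir136 arms are given here for comparison with the miR-3071 arms above.
miR-136-5p: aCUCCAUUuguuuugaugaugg
miR-136-3p: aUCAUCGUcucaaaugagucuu
The identifier of the Mir3071 row has version 1 in the count tables and version 2 in the annotation used here for names. Such a change occurred for 2 of the 49 members, Mir3071 and Mir3074-1, and for 79 rows in all. The older annotation with which the tables were made was not used here, so whether this row counted the strand of Mir3071 or that of Mir136 cannot be told apart. All reads of the row lay on the strand it counted as its own, with 0 on the other strand in either library, which allows an opposite-strand share of up to 0.202% in replicate 1 and 0.187% in replicate 2. Within 10 kb, plus-strand microRNA genes of the imprinted Dlk1-Dio3 region had high counts, with 30865 and 37722 reads for Mir127, 8501 and 10653 for Mir434 and 8946 and 12271 for Mir431.

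Mir3074-1, next in level after Mir3071 and Mir3099, presents the same arrangement. Its row held 681 reads in replicate 1 and 732 in replicate 2 (162 ± 15.3 CPM, n = 2, rank 182). The gene (ENSMUSG00000092741) is annotated on the minus strand at chr13:63301199-63301283, in an intron of Fancc, a DNA repair gene of the Fanconi anaemia pathway. It faces Mir24-1, which has no row and belongs to the Mir23b, Mir27b and Mir24-1 cluster on the plus strand. miR-3074-5p and miR-24-3p overlap over 20 nt.
miR-24-3p: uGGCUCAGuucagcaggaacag
This row also had reads on its opposite strand, 37 of 718 in replicate 1 (5.15%, 95% interval 3.65 to 7.03) and 41 of 773 in replicate 2 (5.30%, 3.83 to 7.13). Which of these strands belonged to Mir3074-1 cannot be told apart, for the reason given for Mir3071. Its cluster neighbours on the plus strand had 39619 and 45759 reads for Mir23b, at a distance of 642 bp, and 2432 and 2421 reads for Mir27b, at 415 bp. Mir24-2, a second locus of miR-24 that faces Mir3074-2, had 359 and 361 reads on its own strand and 2 and 1 on the opposite strand. Mir3074-1 shares an exact stretch of 30 nt with Mir3074-2, and reads placed at several loci, 35.4% and 34.2% of all reads, are listed apart from the genes.

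Without these 2 rows the remaining 47 members held 2736 reads in replicate 1 and 3631 in replicate 2. Their share of all gene reads was then 0.0695% and 0.0750%. The 2 rows themselves carried 2505 and 2705 reads.

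Mir3099 is therefore the highest member whose identity the tables leave in no such doubt. It had 1466 reads in replicate 1 and 1928 in replicate 2 (385 ± 18.4 CPM, n = 2, rank 134), between Mir540 at 388 ± 0.516 CPM and Mir376c at 382 ± 8.27 CPM. That is 53.6% and 53.1% of the reads of the 47 members. The gene (ENSMUSG00000092815) lies at chr7:6803587-6803670 on the plus strand, inside a 169340-nt intron of Usp29, an imprinted gene expressed from the paternal allele next to Peg3. miR-3099 has been studied in the developing mouse nervous system, and its hairpin is shown because this gene carries most of the unambiguous reads. Capitals mark the 2 mature arms.
Mir3099 hairpin: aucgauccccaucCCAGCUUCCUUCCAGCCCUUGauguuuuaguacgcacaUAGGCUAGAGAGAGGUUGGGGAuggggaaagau
The hairpin shares no exact stretch of 20 nt with another annotated microRNA gene, and none of its reads lay on the opposite strand. No other microRNA gene lies within 10 kb of it.

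After Mir3099 the levels fell steeply. Mir3059, in an intron of the glycosyltransferase gene Mgat4c at chr10:101772692-101772772 (plus strand), had 228 and 318 reads (61.8 ± 5.52 CPM, n = 2). Mir3102, in Arhgef17 at chr7:100882306-100882409 (minus strand), had 174 and 216 reads (44.4 ± 0.314 CPM). Mir3061 lies in the 3′ UTR exon of Ppp2ca, which encodes a catalytic subunit of protein phosphatase 2A, at chr11:52126746-52126836 (plus strand), with 128 and 161 reads (32.9 ± 0.539 CPM). In each of these 3 the pools lay close together, with levels within counting error of each other.

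Mir3093 (chr3:88215171-88215257, plus strand) had 124 reads in replicate 1 and 125 in replicate 2 (28.7 ± 4.0 CPM). It lies in an intron of the noncoding RNA gene Gm3764, 341 bp from Mir9-1 on the same strand. miR-9 is a neural microRNA that promotes neuronal differentiation. Mir9-1 has no row. Gm25641, a hairpin gene annotated on the minus strand 332 bp from Mir3093, had 0 reads on its own strand and 72 and 164 on the opposite strand, where Mir9-1 lies. Mir3067, in an intron of Smoc1, a gene for a secreted calcium-binding matrix protein, at chr12:81166151-81166234 (plus strand), had 58 and 110 reads (18.7 ± 5.66 CPM). It is the eighth in order and the one among the first 8 whose pools lay farthest apart relative to its level.

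The first 8 members held 89.4% of the members' reads in replicate 1 and 87.8% in replicate 2, and the first 3 held 75.8% and 73.1%. Of the other members with at least 10 reads in both libraries, 8 had between 34 and 97 reads in each. These were Mir3057 (50 and 97), Mir3064 (59 and 85), Mir3066 (53 and 68), Mir3078 (47 and 69), Mir3080 (37 and 66), Mir3097 (36 and 53), Mir3075 (43 and 39) and Mir3081 (34 and 49). Their hosts include Ddx5, an RNA helicase that also works with Drosha, Boc, a co-receptor for Sonic hedgehog, and Rgs12, a regulator of G protein signalling. The lowest 6 were Mir3105 (21 and 33), Mir3058 (18 and 24), Mir3076 (19 and 22), Mir3062 (15 and 22), Mir3070a (10 and 18) and Mir3106 (11 and 13). Mir3105 lies in Shank2, a postsynaptic scaffold gene.

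The 25 members with some reads but fewer than 10 in 1 or both libraries had at most 27 reads. Mir3060 (9 and 27), Mir3094 (4 and 21), Mir3086 and Mir3088 (13 and 7 each) and Mir3089 (12 and 5) led these. At such counts a member's order among its neighbours is not resolved.

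Mir3078 is the second member next to an abundant neural microRNA locus. It lies in an exon of Mir124a-1hg, the host transcript of miR-124, an abundant microRNA of neurons, 444 bp from Mir124a-1 on the same strand. Mir124a-1 itself had 14 and 21 reads, fewer than the 47 and 69 of Mir3078. Mature miR-124 is made from several loci, and reads placed at several loci are counted for no gene here, so these counts do not compare the amounts of the mature microRNAs. Mir3070a and Mir3070b lie 561 bp apart on chromosome 12, in the same 10-kb neighbourhood as Mir3071, and share an exact stretch of 43 nt. Their unique reads numbered 10 and 18 for Mir3070a and 2 and 2 for Mir3070b, so their true level is not given by these counts. Their 3p arms share the seed and differ in the middle.
miR-3070-3p: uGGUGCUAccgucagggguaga
miR-3070-2-3p: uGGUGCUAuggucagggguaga

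A host gene on the same strand held 41 of the 49 members. Another 3 members lie within a gene on the opposite strand only, and 5 lie in no other gene. Of the 41, 21 lay inside an intron away from its ends, 10 at the 3′ end of an intron (hairpin end within 10 nt of the intron end), 2 filled an intron, 7 lay in an exon of at least 1 transcript and 1 crossed from an intron into an exon. No member lay only at the 5′ end of an intron. At least 10 reads in both libraries were reached by 12 of the 21 inside introns (median level of the 21, 4.77 CPM), by 3 of the 10 at 3′ intron ends (median 0.921 CPM), by both that fill an intron, by 3 of 7 in exons (median 1.07 CPM) and by 1 of the 8 with no gene on their strand (median 0.512 CPM). Mir3074-1 is counted among the 12 inside introns and Mir3071 among the 3 in exons, although it is uncertain whether their reads lay on the strand of those hosts. These counts describe the members and were not tested against each other.

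**Figure D2:**
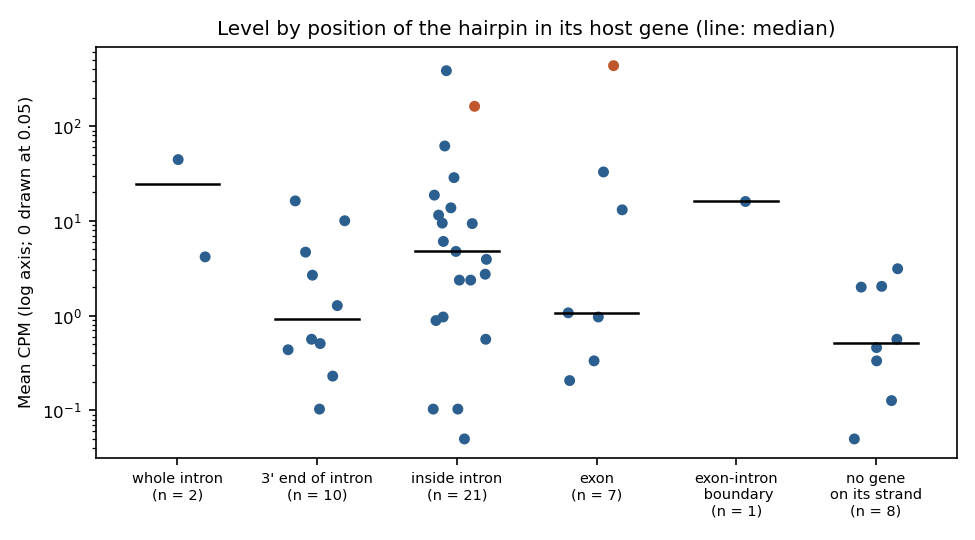
Mean level over the 2 libraries of each of the 49 members, in CPM on a log axis with 0 drawn at 0.05, by position of the hairpin in a gene on its strand; the line is the median of a class. The 21 members inside introns run from 0 to 385 CPM, while the 10 at a 3′ intron end stay between 0.103 and 16.3 CPM. Orange marks Mir3071 and Mir3074-1.

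The members at 3′ intron ends have short hairpins, 60 to 76 nt with a median of 64.5 nt, against 84 nt over all 49. They lie in Ddx5, Rgs12, Tkt, Nfx1, Stub1, Brsk2, Dmpk, BC017158, Rps21 and Sap18. Introns end in AG, the splice acceptor. Hairpins that touch or fill an intron's 3′ end have 13 annotated arms named 3p, and 7 of them end in AG exactly at the last base of the intron. Among the 33 3p arms of the other members, 2 end in AG. The 7 arms are shown because the mature sequence itself carries the splice acceptor. Capitals mark the last 2 bases.
miR-3076-3p: cgcacucuggucuucccuugcAG
miR-3077-3p: cugacucccugcuucuccgcAG
miR-3082-3p: cacauggcacucaacucugcAG
miR-3094-3p: ccuuuaaauuguguccucaAG
miR-3097-3p: cucagaccuuucuaccugucAG
miR-3100-3p: cugugacacacccgcucccAG
miR-3103-3p: uaaccucugauccuucccacAG
The reads over these 7 genes ranged from 0 and 1 for Mir3077 to 36 and 53 for Mir3097. Mir3097 in Rgs12 and Mir3076 in Tkt, the transketolase gene of the pentose phosphate pathway, were the 2 of the 7 with at least 10 reads in both libraries. Mir3103 is the one closest to filling its intron, with a 67-nt hairpin in an 89-nt intron, and had 1 and 3 reads.

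Mir3064 is the highest member at a 3′ intron end (59 and 85 reads, 16.3 ± 1.82 CPM, n = 2). Its 3p arm stops 1 nt before the end of a 737-nt Ddx5 intron, so the long part of that intron lies upstream of the hairpin. In the hairpin below, capitals mark the 2 mature arms.
Mir3064 hairpin: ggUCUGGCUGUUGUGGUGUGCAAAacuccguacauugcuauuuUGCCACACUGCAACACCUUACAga

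Mir3102 and Mir3062 fill an intron and both passed 10 reads in each library. The 104-nt hairpin of Mir3102 is the 104-nt intron of Arhgef17 from its first base to its last, beginning with the GU of a splice donor and ending with the AG of an acceptor. RefSeq lists 4 mature products of this hairpin, 2 on each side, each pair lying end to end. The hairpin is shown with all 4 in capitals, so the only lower-case letters are the loop and the last base of the intron.
Mir3102 hairpin: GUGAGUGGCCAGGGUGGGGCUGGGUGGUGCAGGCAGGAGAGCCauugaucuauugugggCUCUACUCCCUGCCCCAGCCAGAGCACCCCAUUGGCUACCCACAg
Its counts of 174 and 216 reads do not separate the 4 products. Mir3062 spans the whole 97-nt intron of Pfas, a gene of purine synthesis, and runs 6 nt past its 5′ end and 2 nt past its 3′ end, with 15 and 22 reads.

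Mir3057 (ENSMUSG00000092781) crosses from an intron into an exon of Apba3, which encodes an adaptor protein of the Mint family, at chr10:81271597-81271687 on the plus strand. It had 50 reads in replicate 1 and 97 in replicate 2 (16.4 ± 5.19 CPM, n = 2). The exon starts at position 81271662, so the first 8 bases of miR-3057-3p are intron and the next 14 are exon, while miR-3057-5p lies wholly in the intron. In the sequences, capitals mark the seed.
miR-3057-5p: aUUGGAGCugagauucugcgggau
miR-3057-3p: uCCCACAGgcccagcucauagc
The last base of the seed of miR-3057-3p is therefore the last base of the intron.

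Hairpin length, base composition and predicted folding had similar medians in the measured members and in the rest. The 22 members with at least 10 reads in both libraries had a median length of 84.5 nt, a median GC share of 54.5% and a median predicted folding energy of −0.445 kcal/mol per base. In the other 27 members the medians were 83 nt, 54.1% and −0.465 kcal/mol per base. These are descriptions with no test.

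A seed shared with another microRNA of the table was found for 14 of the 46 members with a mature sequence. Mir3064 and Mir3085 are the only pair of members at separate loci that share a seed, CUGGCUG, apart from the copies Mir3070a and Mir3070b.
miR-3064-5p: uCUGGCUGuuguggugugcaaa
miR-3085-3p: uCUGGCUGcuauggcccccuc
Mir3064 had 59 and 85 reads and Mir3085 had 6 and 12. Outside the series, the seed of miR-3059-5p is that of miR-5616-5p, miR-3102-5p shares with miR-702-5p, miR-3058-3p with miR-7681-5p, miR-3062-3p with miR-7000-5p, miR-3101-3p with miR-7223-5p, miR-3091-3p with miR-2861, miR-3077-3p with miR-7661-3p, miR-3092-5p with miR-7053-5p, and miR-3103-5p with miR-6965-5p and miR-7047-5p. Within the number range, miR-3073a-5p shares its seed with miR-3073b-5p of Mir3073b, which has no row. Both arms of Mir3099 have a seed found in no other entry of the table.

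Besides Mir3071 and Mir3074-1, 2 members face another microRNA hairpin. Mir3073a lies opposite Mir3073b, with arm overlaps of 20 nt, and had 0 and 1 reads on its own strand and 0 and 1 on the other. Mir3083, on the minus strand, faces a hairpin that RefSeq lists as miR-3083b, with arm overlaps of 20 and 21 nt. It had 1 and 2 reads on its own strand and 0 and 4 on the opposite strand. Over all members the opposite strand held 0.739% of reads in replicate 1 and 0.736% in replicate 2, against 2.22% and 2.09% over all rows, and without Mir3074-1 it was 2 of 4562 reads (0.0438%) in replicate 1 and 6 of 5610 (0.107%) in replicate 2.

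Set beside other ranges of microRNA numbers, the series reached 10 reads less often, and had lower levels, than Mir1 to Mir999 and reached it more often, with a higher median level, than the other ranges listed here. At least 10 reads in both libraries were found for 44.9% of the 49 members, for 60.2% of the 465 genes Mir1 to Mir999, for 24.4% of the 82 genes Mir1000 to Mir3056, for 15.3% of the 72 genes Mir3114 to Mir5999 and for 6.70% of the 373 genes from Mir6000 on. Over all 1973 rows the share was 18.9%. Rows with no read at all made up 4.08% of the members, 26.0% of the genes Mir1 to Mir999 and 63.5% of all rows. The median level was 2.37 CPM among the members and 32.0 CPM among Mir1 to Mir999, and it was 0.103 CPM for Mir1000 to Mir3056, 0.127 CPM for Mir3114 to Mir5999, 0.103 CPM from Mir6000 on and 0 over all rows. In the range Mir6896 to Mir7094, which is rich in annotated mirtrons, 6.18% of 178 genes passed 10 reads in both libraries and the median was 0.369 CPM. The order by total reads was another one. The genes Mir1000 to Mir3056 held 0.666% of all gene reads with a highest level of 2684 CPM, against 0.132% and 435 CPM in the series. No test was run between these ranges, and reads placed at several loci are missing from all of them. How many such reads each range lost is not known, and the loss need not be even. A row with no read therefore does not show that its mature microRNA was absent.

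**Figure D3:**
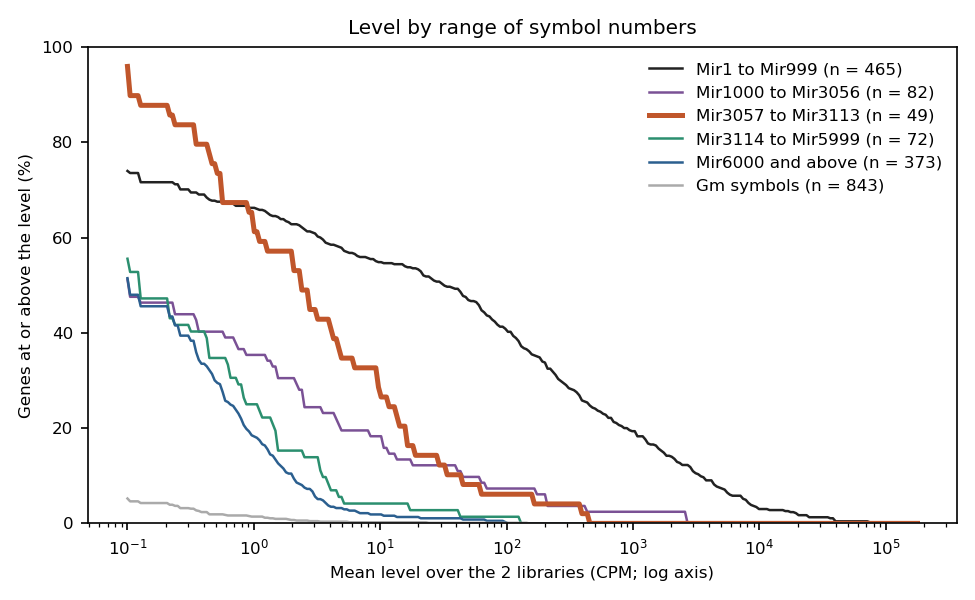
Percentage of the genes in each range of symbol numbers that reach a given mean level over the 2 libraries, with the level in CPM on a log axis. The thick orange line of Mir3057 to Mir3113 starts above all others at the left, since 4.08% of its 49 genes had no read, and ends near 435 CPM, while the genes Mir1 to Mir999 (black) reach far higher levels.

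The tissue label was checked with markers. The Hox-cluster genes Mir10a and Mir10b, which mark hindbrain and spinal cord, stood at 71261 ± 14943 and 39376 ± 13012 CPM (SD, n = 2), and the neural genes Mir137 and Mir149 at 8360 ± 637 and 20337 ± 297 CPM. The Hox-cluster genes Mir615 and Mir196b were lower, at 1511 ± 450 and 41.2 ± 23.8 CPM. So were the neural genes Mir219a-2 and Mir9-3, at 2118 ± 109 and 576 ± 99.1 CPM. Of 3 striated muscle genes, Mir206 had 107 and 113 reads (25.3 ± 2.70 CPM) and Mir1a-1 and Mir133a-1 had 0. Mature miR-1a and miR-133a are each made from several loci whose shared reads are counted for no gene, so a 0 in these rows is no check of muscle. Mir126a of endothelium stood at 24151 ± 2193 CPM and Mir451a of red blood cells at 119 ± 19.7 CPM. The mesenchyme genes Mir143 and Mir199b stood at 5857 ± 448 and 98.9 ± 44.0 CPM. Vessel, blood and mesenchyme microRNAs were thus present too. The liver marker Mir122 had 140 and 276 reads (46.3 ± 15.2 CPM). The part of such other tissues in the members' counts was not tested. In a bulk tissue, fewer cells of a type and less RNA per cell cannot be told apart.

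Between the 2 pools, most members did not pass a test for a difference beyond counting error. For many this does not show equal levels, since their intervals were wide, such as −1.35 to 1.23 on the log2 scale for Mir3106. A test was possible for the 28 members that had 10 or more reads in 1 or both libraries. Of these, 5 passed the exact binomial test after TMM scaling (Benjamini-Hochberg adjusted over all 426 genes tested, threshold 0.05), beside 35.9% of all genes tested. Of the 5, 3 were higher in replicate 2 (all genes, 15.3%) and 2 lower (all genes, 20.7%). Among the 3, Mir3094 reached 10 reads only in replicate 2, where it was higher, so the minimum itself favoured its difference. The members had fewer reads to test with, a median of 86 over both libraries against 837 over all tested genes. With 1 library per pool, the test sets 1 library against the other and takes no account of the spread between pools or preparations.

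Mir3067, Mir3057 and Mir3094 were the members higher in replicate 2. Mir3067, with 58 and 110 reads, had a ratio of 0.61 on the log2 scale (exact 95% interval 0.14 to 1.09, adjusted p = 0.03). Mir3057, with 50 and 97 reads, had a ratio of 0.64 (0.13 to 1.16, adjusted p = 0.0297). Mir3094, at the 3′ end of an intron of the zinc finger gene Nfx1 (ENSMUSG00000092862, chr4:40993695-40993758, plus strand), had 4 and 21 reads, 1.02 and 4.34 CPM, and a log2 ratio of 2.08 (0.51 to 4.08, adjusted p = 0.0133). Mir3060, in an intron of Rnf215, had a log2 ratio of 1.27 (0.14 to 2.54) and missed the threshold with an adjusted p of 0.0514. The largest count among these 4 members is the 110 reads of Mir3067, and their intervals are wide. Tissue markers also moved between these pools. The summed level of 4 Hox-cluster genes was 92088 CPM in replicate 1 and 132292 CPM in replicate 2, with all 4 higher in replicate 2. That of 2 choroid plexus and ciliated cell genes was 4378 and 5665 CPM, both higher. The 3 blood genes summed to 397 and 283 CPM and the 2 mesenchyme genes to 6304 and 5607 CPM, each gene lower in replicate 2. Mir126a of endothelium was also lower, at 25702 and 22600 CPM, and Mir122 of liver was higher, at 35.6 and 57.0 CPM. The 4 neural genes summed to 31003 and 31778 CPM, with 3 higher. Their part in the members' differences was not tested.

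The 2 members lower in replicate 2 were the rows of uncertain strand. Mir3071 had a log2 ratio of −0.20 (−0.29 to −0.11, adjusted p = 9.42e-05) and Mir3074-1 of −0.21 (−0.36 to −0.06, adjusted p = 0.0197). Both differences were small and were resolved by the high counts of these rows. Mir3099, with a similar number of reads, had 0.08 (−0.02 to 0.18, adjusted p = 0.219), so a difference larger than 0.18 on the log2 scale lay outside its counting interval. Among the other leading members, the interval of Mir3067, given above, did not hold 0. The rest held 0, with log2 ratios of 0.17 for Mir3059 (−0.08 to 0.42), 0.00 for Mir3102 (−0.30 to 0.29), 0.02 for Mir3061 (−0.33 to 0.36) and −0.30 for Mir3093 (−0.67 to 0.07).

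Over all 28 members the median log2 ratio was 0.13, with 18 higher and 10 lower in replicate 2, beside −0.01 with 203 higher and 223 lower over the 426 genes. A difference of at least 1.5-fold was found for 8 of the 28 members, 28.6%, beside 16.7% of all genes tested. Among the 8, only Mir3057 and Mir3067 had at least 10 reads in both libraries. Mir3060, Mir3094, Mir3085, Mir3086, Mir3088 and Mir3089 entered the test only through the library in which they were higher. Tested members also had fewer reads, a median of 86 against 837, so these 2 percentages do not compare how variable the genes are. When a coefficient of variation of 0.1 between pools was allowed in edgeR's exact test, none of the 28 members passed (2 had an unadjusted p under 0.05, and the smallest adjusted p was 0.287, for Mir3094), beside 1.41% of all genes.

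**Figure D4:**
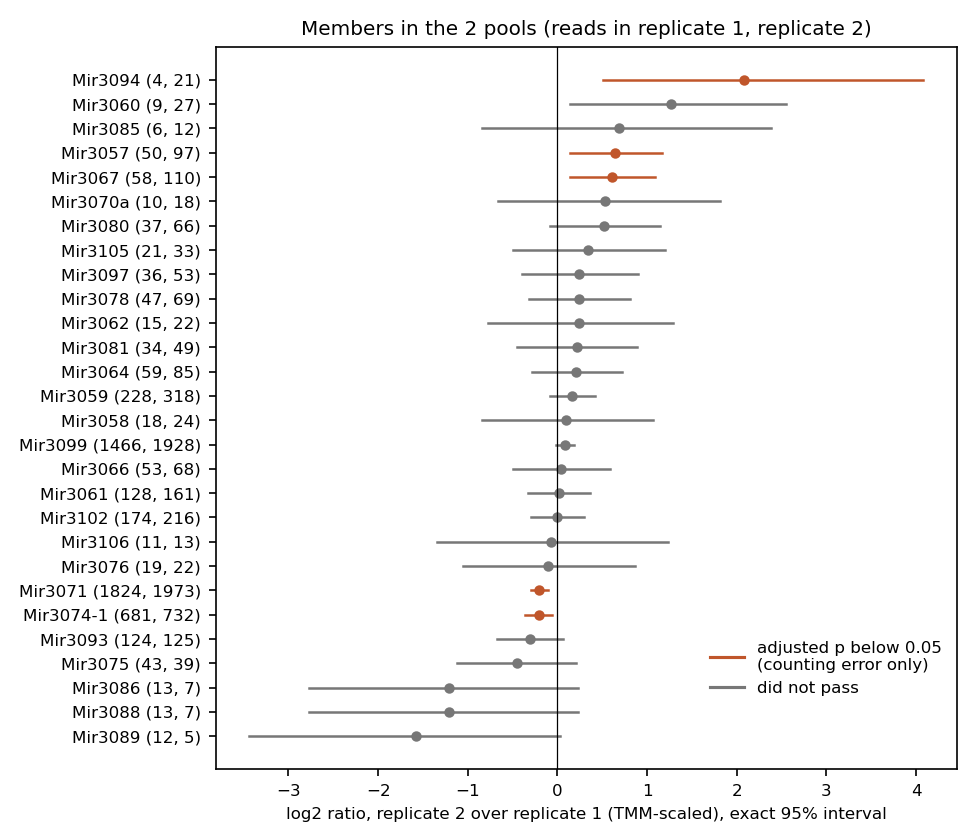
Log2 ratio of replicate 2 over replicate 1 after TMM scaling for the 28 tested members, with exact 95% intervals and the reads of both libraries in brackets. Orange marks the 5 members past the threshold; the intervals are narrowest for Mir3071 and Mir3099 and widest for members with few reads, such as Mir3089 with 12 and 5.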

How the data were processed

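The deposited files hold read counts per hairpin gene. The authors counted reads on build mm10, per the labels, and used GENCODE M4 gene models, as a note deposited beside each table states. The sources used here name no aligner, trimming or counting tool. Each row has 3 deposited counts without column names, and the strand column with more reads in all was read as own strand. Totals of unassigned reads stayed out of library sizes: multimapping 35.4% and 34.2% of all reads, unmapped 13.7% and 15.8%, outside genes 2.56% and 2.96%. Symbols and positions came from GENCODE M21 (GRCm38) by identifier without version (1894 of 1973 matched), and sequences from RefSeq (GRCm38.p6).

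CPM are counts scaled by the own-strand gene reads (3937840 and 4839647). Pools were compared over 426 genes that reached 10 reads in 1 or both libraries: TMM scaling (edgeR 4.0.16, R 4.3.3), exact conditional binomial test, Benjamini-Hochberg adjustment. An edgeR quasi-likelihood test has no residual degrees of freedom here. The procedure was also run on simulated counts that held counting error only. That run had no spread between pools and cannot show how the test behaves under such spread. Reads are not independent molecules, so intervals cover counting error only. Alternatives were DESeq2 1.42.0 size factors, total counts, other minimums, both strands and edgeR's exact test. RNAfold 2.7.2, Python 3.11.15 and scipy 1.17.1 were used. Full values were given for the 8 highest members and those past the threshold; members with at least 10 reads in both libraries, facing hairpins, shared seeds and neighbours within 10 kb were named, and a few further genes and members, such as Mir3103 and Mir3060, were chosen after their values were seen. The members and lists were chosen with earlier results of these data known.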

Additional observations from a re-analysis of the deposited data

Results flagged for a closer look

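Reads on the strand opposite to a member's own, which the levels do not use, exceeded the 3 reads that a count of 0 allows for 2 members. Mir3074-1 had 37 opposite-strand reads in replicate 1 and 41 in replicate 2. Mir3083 had 4 in replicate 2 and 0 in replicate 1. Both members face another microRNA hairpin, Mir24-1 and the one RefSeq lists as miR-3083b.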

How the results depend on the processing

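The count of 22 members detected was 40 with a minimum of 1 read and 7 with 100, and 25 when either library was left out. The share of gene reads, 0.132%, was 0.130% with both strands counted, 0.115% without the 6 members that share a stretch of 20 nt with another microRNA gene, 0.0723% without Mir3071 and Mir3074-1 (chosen after seeing the data), and 0.131% to 0.133% with 1 library left out. The 5 members past the threshold were 0 with a coefficient of variation of 0.1 or 0.2, and 3 without Mir3071 and Mir3074-1; for all genes, 153 became 6 and 0. The opposite-strand share was 0.736% to 0.739% in single libraries and 0.0754% without Mir3074-1 (0.0438% and 0.107% in replicates 1 and 2), an alternative added after seeing the data. Mir3060 passed with both strands counted (1.28, adjusted p = 0.0497), and with a minimum of 1 read Mir3074-1 did not (−0.18, adjusted p = 0.0905) while Mir3095 (7 and 0 reads) did. The log2 ratio of Mir3102, −0.00242, was 0.0124 with DESeq2 factors, 0.0144 with total counts, 0.0288 and 0.00955 with minimums of 1 and 50 reads, and 0.00509 with both strands, all within its interval. No paired analysis was possible because the series has 1 group. Depth limits the 27 members that did not reach 10 reads in both libraries, and their order is mostly not resolved. Mir3094 was the only one of them past the threshold with the settings of the report, and it entered the test through replicate 2 alone.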
